A study of Mus musculus with 40 samples.

Results

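The genes of prostaglandin and leukotriene synthesis and of the prostaglandin E2 response were followed by RNA-seq in bone marrow-derived macrophages (BMDMs), macrophages grown from mouse bone marrow with M-CSF. The set was defined by 10 gene symbols (Ptgs1, Ptgs2, Ptges, Hpgds, Ptger2, Ptger4, Alox5, Alox5ap, Lta4h and Ltc4s), and each matched 1 of the 43430 genes in the count table through its Ensembl identifier. BMDMs came from mice of the strain C57/Bl6, 5 labelled VAV-Cre WT (WT) and 5 labelled VAV-Cre NDI1 (NDI1), from a colony in which adults of both sexes were used and in which the NDI1 line had a mixed J and N substrain background. Both labels name the Vav-driven Cre, which is active in hematopoietic cells in general and not in macrophages alone, and in NDI1 mice this Cre removes the stop before an NDI1 transgene in Rosa26. NDI1 is a yeast enzyme that passes electrons from NADH to ubiquinone, as complex I does, and it is insensitive to the complex I inhibitor piericidin A. From each mouse, 1 library was untreated, 1 had LPS at 100 ng/ml for 4 h, 1 had 500 nM piericidin A without LPS, and 1 had that inhibitor from 30 min before LPS, which made 8 groups of 5 libraries. How long the cells without LPS were kept in piericidin A is not stated. The study thus asked of each gene whether complex I inhibition changed its level with or without LPS, and whether NDI1 altered that change.

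Prostaglandins and leukotrienes are lipid signals made from arachidonic acid, which phospholipases release from membranes. The cyclooxygenases turn it into prostaglandin H2, the common precursor from which terminal synthases make prostaglandin E2, prostaglandin D2 and other prostanoids, whereas 5-lipoxygenase and its helper protein turn it into leukotriene A4, the precursor of leukotriene B4 and the cysteinyl leukotrienes. In macrophages, the inducible cyclooxygenase and the inducible prostaglandin E synthase are well-known targets of LPS signaling, and prostaglandin E2 acts back on the cells through receptors that raise cyclic AMP.

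Total counts per library ranged from 6950748 to 13552070. Levels are given in CPM (a library's counts scaled to a common total, with TMM factors), and a gene was called changed when its adjusted p-value in edgeR's quasi-likelihood test was under 0.05. The summed level of 8 macrophage markers, Csf1r and Lyz2 among them, was at least 19670 CPM in every library. The summed level of Il1b, Tnf, Nos2 and Il6 was 10.1 to 211 CPM without LPS and 2842 to 6537 CPM with it, which matches the LPS labels. NDI1 itself, a yeast gene, was not analysed here, so the genotypes were not checked from these counts. The 4 libraries each of 1 WT mouse (mouse 496) and 1 NDI1 mouse (mouse 503) stood apart. Of 45 markers of neutrophils, mast cells, eosinophils, B cells, T and NK cells, dendritic cells, platelets and stromal cells, 29 had a higher mean over treatments in both of these mice than in any of the other 8. Among the 10 pathway genes, the same held for 3 (Alox5, Ptgs1 and Ptger4). It held as well for the macrophage markers Csf1r, Itgam and Mertk, and its share among all tested genes was not counted. Whether the 10 genes differ from other genes in this is therefore not known. In bulk RNA, fewer cells of a type and less RNA per cell cannot be told apart.

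Per kilobase of merged exons, Alox5ap (5-lipoxygenase-activating protein, which presents arachidonic acid to the lipoxygenase) was the most abundant of the 10 genes in untreated WT BMDMs, with a mean of 181 CPM per kb, and Hpgds (hematopoietic prostaglandin D synthase) came next with 15.7. Lta4h, Ptger4 and Ptgs1 followed with means of 7.61, 7.06 and 6.49 CPM per kb, and Ptger2 with 4.17. The lowest were Ltc4s at 2.29, Ptges at 1.93, Ptgs2 at 0.413 and Alox5 at 0.162 CPM per kb. With the exon lengths listed in the count table, the first 3 and the last 2 places were held by the same genes, but Lta4h came to 22.5 CPM per kb, Ptger2 (5.88) passed Ptgs1 (4.61) and Ptger4 (4.54), and Ptges (1.42) passed Ltc4s (1.26), so the order within the middle places is uncertain. After LPS the first place passed to Ptgs2, whose mean in WT was 309 CPM per kb against 181 for Alox5ap and 66.1 for Ptges (294.5, 263 and 48.7 with the exon lengths of the count table). The per-kilobase ratio of Ptgs2 to Ptgs1, the inducible over the constitutive cyclooxygenase, was 0.0377 to 0.0868 in the 5 untreated WT libraries and 63.3 to 119 in the 5 with LPS. With piericidin A alone it was 0.250 to 0.975 in WT and 0.0382 to 0.345 in NDI1.

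**Figure D1:**
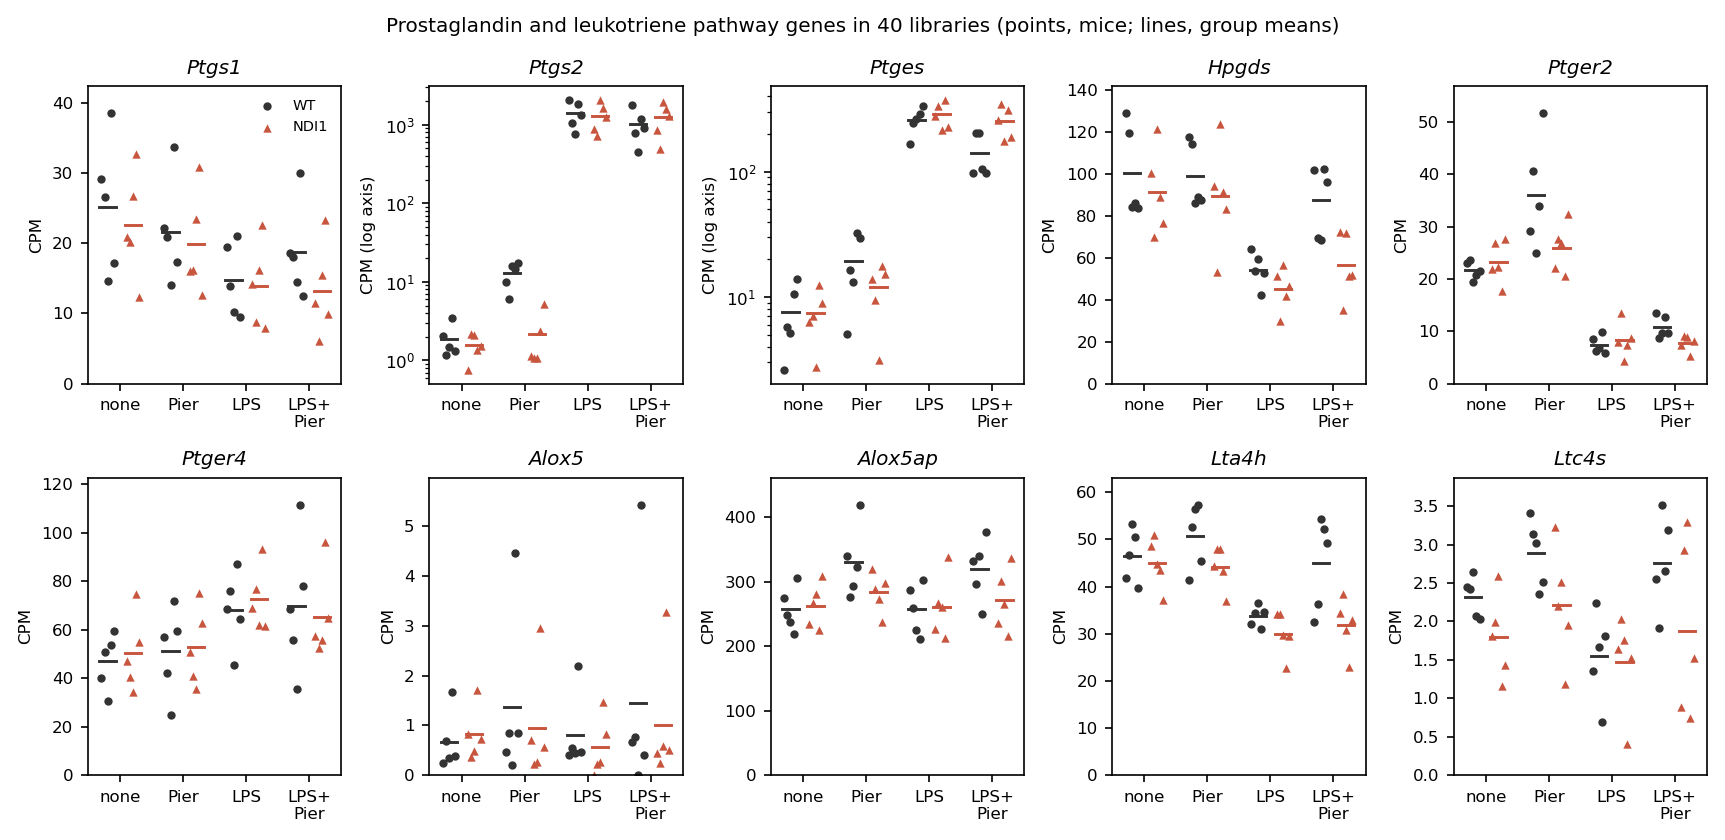
Level of each of the 10 genes in CPM (vertical axes; logarithmic for Ptgs2 and Ptges, linear from 0 for the others) without treatment, with piericidin A (Pier), with LPS and with both. Points are single mice, circles for WT and triangles for NDI1, and lines are group means; Ptgs2 and Ptges rose with LPS in every mouse, and the isolated high points of Alox5 belong to mice 496 and 503.

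LPS raised Ptgs2 and Ptges in both genotypes, lowered Hpgds, Ptger2 and Lta4h in both, and lowered Ptgs1 in WT. In WT, 6 of the 10 genes were called, 2 up and 4 down, and of the 11853 genes tested 62.5% were called, so that the share among the 10 is close to that of all genes. In NDI1, 5 were called, 2 up and 3 down, against 62.7% of all genes. The median log2 fold change of the 10 genes was −0.23 in WT, beside −0.00761 over all genes tested. Beside these values, the summed level of 8 neutrophil markers was higher with LPS in 5 of 5 mice of each genotype (45.2 to 1010 against 21.2 to 437 CPM in WT), as was that of 5 platelet and megakaryocyte markers (58.2 to 333 against 45.7 to 273 CPM in WT). In WT the summed level of 5 dendritic cell markers was 1.49 to 4.69 CPM untreated and 8.48 to 17.8 CPM with LPS, without overlap. The median sum in WT went from 12.7 to 36.5 CPM for 4 eosinophil markers and from 3.55 to 7.05 CPM for 5 stromal cell markers. It fell from 2.37 to 1.28 CPM for 8 mast cell markers and from 2.10 to 1.51 CPM for 5 B cell markers. For 5 T and NK cell markers it was 6.52 CPM untreated and 6.94 CPM with LPS. In the mice other than 496 and 503, Ccr3 made up most of the eosinophil sum. Averaged over treatments, Ccr3 was 7.31 to 38.3 CPM per mouse there, and Epx, Prg2 and Siglecf reached at most 0.0801, 0.804 and 1.405 CPM. In mice 496 and 503, Ccr3 averaged 14.6 and 23.6 CPM and Prg2 14.3 and 4.497 CPM. Which of these markers moved with LPS was not tested. The part of the cell types named here in the LPS values was not tested either.

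Ptgs2 (cyclooxygenase-2, ENSMUSG00000032487) lies on chromosome 1 (mm10, chr1:150100031-150108227, plus strand). Its level in untreated WT BMDMs was 2.04, 1.18, 1.49, 3.42 and 1.33 CPM in mice 449, 452, 453, 496 and 520. With LPS the same mice gave 2101, 1054, 757, 1831 and 1339 CPM. No library with LPS overlapped any without it, and the log2 fold change was 9.57 ± 0.56 (SE), a 758-fold rise (adjusted p = 3.13e-17). In NDI1 mice 447, 460, 461, 503 and 521, Ptgs2 was 0.754, 2.14, 2.11, 1.34 and 1.503 CPM untreated and 886, 714, 2058, 1631 and 1245 CPM with LPS. These groups did not overlap either (log2 fold change 9.69 ± 0.56, adjusted p = 3.26e-17).

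Ptges (microsomal prostaglandin E synthase-1, which works with cyclooxygenase-2) is on the minus strand of chromosome 2 (chr2:30889471-30929863). In WT mice 449, 452, 453, 496 and 520 it went from 2.61, 5.73, 5.14, 10.6 and 13.9 CPM to 166, 244, 262, 290 and 338 CPM with LPS. The ranges did not overlap, and the log2 fold change was 5.09 ± 0.47 (adjusted p = 6.48e-12). NDI1 mice 447, 460, 461, 503 and 521 went from 6.26, 6.98, 2.76, 12.5 and 8.94 CPM to 281, 338, 214, 377 and 227 CPM. The rise was again seen in every mouse, with a log2 fold change of 5.26 ± 0.47 (adjusted p = 3.62e-12).

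The 250 bases before the start of these 2 LPS-induced genes are shown because they were the only members that rose together with LPS and again with piericidin A in WT. The sequences are from RefSeq (GRCm38.p6), Ptgs2 at chr1:150099781-150100030 on the plus strand and Ptges at chr2:30903298-30903547 on the minus strand. The RefSeq start of Ptges lies inside the longer span that the count table gives for it. Capitals mark the only motif match found, a C/EBP palindrome (TTGCGCAA).

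Ptgs2: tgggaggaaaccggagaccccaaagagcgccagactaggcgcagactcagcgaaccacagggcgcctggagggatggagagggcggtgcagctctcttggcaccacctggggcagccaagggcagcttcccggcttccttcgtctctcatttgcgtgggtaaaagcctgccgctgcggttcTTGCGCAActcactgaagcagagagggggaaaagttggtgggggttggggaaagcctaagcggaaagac

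Ptges: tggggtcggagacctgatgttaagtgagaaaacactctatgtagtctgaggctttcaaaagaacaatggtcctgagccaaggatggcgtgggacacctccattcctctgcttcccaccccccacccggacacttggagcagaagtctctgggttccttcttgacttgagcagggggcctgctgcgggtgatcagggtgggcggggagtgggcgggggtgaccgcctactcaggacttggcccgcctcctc

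The match in Ptgs2 lay from base −69 to −62 relative to the gene start, and 0.164% of 32851 such windows hold this motif. Both strands were searched for it and for the NF-kB motif (in 7.25% of windows), the CRE (TGACGTCA, 1.55%), the AP-1 motif (TGANTCA, 6.75%), a C/EBP-ATF composite (TGATGCAA, 0.791%) and the TATA box (TATAAA, 12.4%). Windows of 9 of the 10 genes could be searched, and none of the other 8 held any of these motifs. A match is a string of letters and not a measured site, and the absence of one speaks only of these letters in this window.

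The levels of Hpgds and Ptgs1 went the other way. Hpgds (chr6:65117293-65144908, minus strand) fell in WT from 129, 120, 84.0, 86.2 and 83.9 CPM to 64.0, 53.8, 59.2, 42.0 and 52.5 CPM (mice 449, 452, 453, 496 and 520), which is −0.89 ± 0.20 on the log2 scale (adjusted p = 0.000231). NDI1 mice 447, 460, 461, 503 and 521 went from 100.4, 69.9, 121, 89.2 and 76.3 CPM to 51.2, 29.6, 56.3, 41.6 and 46.7 CPM, a log2 fold change of −1.02 ± 0.20 (adjusted p = 3.96e-05). Untreated and LPS libraries did not overlap in either genotype. Ptgs1 (chr2:36230426-36252272, plus strand), the cyclooxygenase that many cells carry at rest, was lower with LPS in 5 of 5 WT and 5 of 5 NDI1 mice, yet the spread between mice (14.6 to 38.6 CPM untreated and 9.54 to 20.99 CPM with LPS in WT) left the groups overlapping. Its log2 fold change of −0.77 ± 0.33 in WT passed the test narrowly (adjusted p = 0.0431) and that of −0.70 ± 0.33 in NDI1 did not (adjusted p = 0.0659). With the mouse as a block both were called, with adjusted p-values of 1.74e-06 and 3.75e-06, while the WT call was lost when any of 7 mice was left out (adjusted p up to 0.114). Exons of Gm43621 overlap Ptgs1 on the opposite strand, and whether counting was strand-specific is not known, so reads of such pairs cannot be told apart.

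Among the 10 genes are a pair of prostaglandin E2 receptors, both of which couple to cyclic AMP. Ptger2 (EP2 receptor, chr14:44988195-45003820, plus strand) fell in WT from 23.0, 23.6, 19.5, 20.7 and 21.4 CPM to 8.58, 6.20, 6.69, 9.88 and 5.91 CPM (mice 449, 452, 453, 496 and 520). In NDI1 mice 447, 460, 461, 503 and 521 it went from 21.9, 26.9, 22.3, 17.7 and 27.7 CPM to 7.90, 13.5, 4.32, 7.36 and 8.67 CPM. Every LPS library was below every untreated one in both genotypes. The log2 fold changes were −1.54 ± 0.21 for WT (adjusted p = 5.46e-08) and −1.47 ± 0.21 for NDI1 (adjusted p = 1.06e-07). Ptger4 (EP4 receptor, chr15:5206661-5244187, minus strand) was higher with LPS in 5 of 5 mice of each genotype, with overlapping groups (30.5 to 59.3 against 45.4 to 87.1 CPM in WT). Its log2 fold changes of 0.54 ± 0.26 in WT and 0.53 ± 0.26 in NDI1 did not pass (adjusted p = 0.0704 and 0.0745). Both passed with the mouse as a block, at adjusted p-values of 0.000239 and 0.000128. Exons of Ttc33 and Gm15937 overlap Ptger4 on the opposite strand, and exons of Gm17173 and Gm49364 overlap Ptger2.

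Of the 4 leukotriene genes among the 10, the one called with LPS was Lta4h (chr10:93453396-93484896, plus strand), which codes for leukotriene A4 hydrolase, the enzyme that makes leukotriene B4. In WT mice 449, 452, 453, 496 and 520 it went from 41.7, 46.8, 53.3, 50.5 and 39.8 CPM to 32.1, 34.3, 36.6, 31.0 and 34.7 CPM. In NDI1 mice 447, 460, 461, 503 and 521 it went from 48.6, 51.0, 44.7, 43.6 and 37.1 CPM to 34.1, 34.1, 29.7, 22.6 and 29.4 CPM. The groups did not overlap in either genotype, and the log2 fold change was −0.46 ± 0.14 (adjusted p = 0.00349) for WT and −0.58 ± 0.14 (adjusted p = 0.000325) for NDI1. Alox5ap (chr5:149265058-149288045, plus strand, overlapped by Gm19719) was between 219 and 306 CPM untreated and between 212 and 302 CPM with LPS in WT, and its log2 fold change was −0.00 ± 0.14 (adjusted p = 0.999). Ltc4s (chr11:50236469-50238616, minus strand, overlapped by Gm26542), the synthase of leukotriene C4, was scarce, with 3 to 46 counts per library. It was lower with LPS in 5 of 5 WT mice (2.03 to 2.64 against 0.686 to 2.24 CPM), and its log2 fold change of −0.56 ± 0.34 did not pass (adjusted p = 0.146; 0.0446 with the mouse as a block). In NDI1 it was lower in 3 mice and higher in 2 (log2 fold change −0.28 ± 0.34, adjusted p = 0.494). Alox5, at 0.245 to 1.67 CPM untreated and 0.408 to 2.20 CPM with LPS in WT, was not called in either genotype (adjusted p = 0.81 and 0.625).

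Around these 10 genes, 58 others of the pathway were listed by role, and 37 had enough counts to be tested. LPS in WT raised 11 of the 37 and lowered 10, and 16 were not called, beside 62.5% of all genes called. Their median log2 fold change was 0.137, beside −0.00761 over all genes tested. Of 11 tested genes of arachidonate release, 3 rose and 4 fell. Plaat3, a phospholipase, rose from 4.13 to 7.15 CPM to 47.5 to 96.1 CPM (log2 fold change 3.76 ± 0.26, adjusted p = 2.23e-15). Pla2g4a, the cytosolic phospholipase A2 that supplies arachidonate to the cyclooxygenases, rose from 7.85 to 12.1 CPM to 78.8 to 171 CPM (3.60 ± 0.28, adjusted p = 5.55e-14). Both genes for diacylglycerol lipases, which make an endocannabinoid, fell, Dagla from 9.20 to 16.6 CPM to 1.098 to 1.51 CPM (−3.504 ± 0.27, adjusted p = 8.07e-14) and Daglb by a log2 fold change of −1.503 ± 0.27 (adjusted p = 7.07e-06). Exons of Rac1 overlap Daglb on the opposite strand. Pla2g4a is a neighbor of Ptgs2 on chromosome 1, with 138740 bases between the genes.

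Of 10 tested genes of leukotriene receptors, export and conversion, LPS raised 4 and lowered 1 in WT, and raised 3 in NDI1, beside 62.5% and 62.7% of all genes called. Fpr2, a receptor for formyl peptides and lipoxins, had the largest log2 fold change of the 37 (4.35 ± 0.78 on the log2 scale, adjusted p = 8.29e-06), from 1.69 to 18.7 CPM to 56.0 to 314 CPM in WT; it shares exons with Fpr3 on the same strand. Cysltr2, a receptor for cysteinyl leukotrienes, rose from 0.406 to 0.897 CPM to 5.58 to 10.9 CPM (3.33 ± 0.37, adjusted p = 7.38e-10). Pla2g4c was also called, but its 5 untreated WT libraries held only 0 to 0.397 CPM and those with LPS 0.606 to 2.33 CPM. Of the other prostanoid receptors, 2 of 3 tested fell in WT, and of the other prostanoid synthases, 1 of 6 rose and 2 fell, again beside 62.5% of all genes called. None of the 37 was called for a genotype difference of the LPS effect, and neither was any of the 10 (0% of all genes by edgeR and by DESeq2; 63 genes and no member had an unadjusted p under 0.05).

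**Figure D2:**
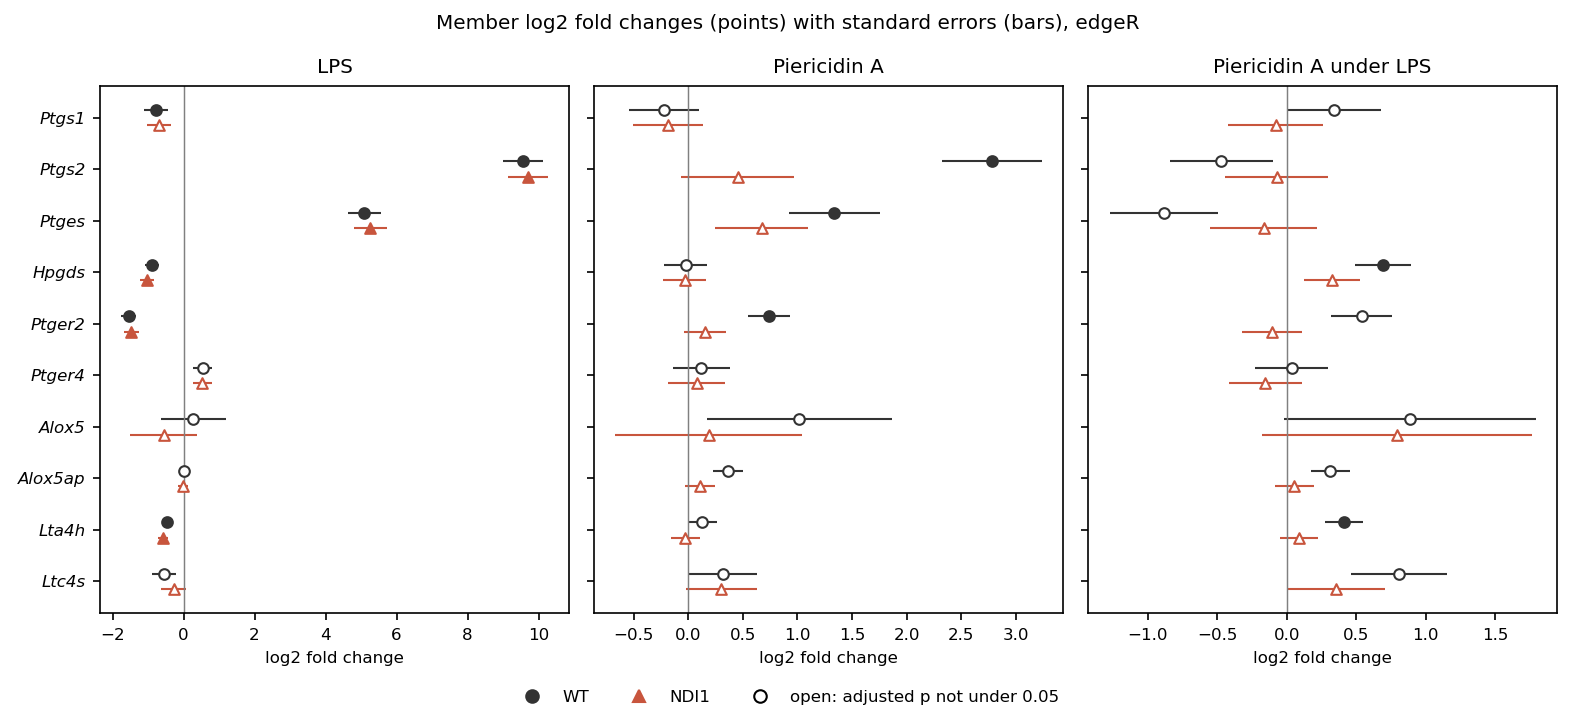
Log2 fold changes (horizontal axes, one scale per panel) of the 10 genes for LPS, piericidin A and piericidin A in LPS-treated BMDMs, in WT (circles) and NDI1 (triangles). Bars are standard errors and filled points have an adjusted p under 0.05 in edgeR; the LPS values of the genotypes lie close together, and for piericidin A only WT points are filled.

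Piericidin A alone raised Ptgs2, Ptges and Ptger2 in WT BMDMs. In WT, 3 of the 10 genes were called, all up, where 14.8% of all genes were called. In NDI1 none was called, as for all genes (0% by edgeR and by DESeq2; 58 genes, and none of the 10, had an unadjusted p under 0.05). Beside these, the summed level of 8 neutrophil markers was higher with piericidin A in 5 of 5 WT mice. It was 21.2 to 437 CPM untreated and 28.6 to 1463 CPM with piericidin A. The median sum in WT went from 2.37 to 5.34 CPM for 8 mast cell markers. It fell from 12.7 to 6.55 CPM for 4 eosinophil markers and from 2.10 to 1.59 CPM for 5 B cell markers. For platelet and megakaryocyte markers it was 95.4 and 93.3 CPM. The part of these cell types in the rises was not tested. For Il1b, Tnf, Nos2 and Il6 the sum was 11.8 to 42.9 CPM in untreated WT libraries and 26.9 to 211 CPM with piericidin A.

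Ptgs2 rose with piericidin A in WT mice 449, 452, 453, 496 and 520 to 10.1, 6.13, 16.1, 14.8 and 17.2 CPM, from the untreated 1.18 to 3.42 CPM. The lowest treated library was above the highest untreated one, and the log2 fold change was 2.78 ± 0.46, a 6.87-fold rise (adjusted p = 5.27e-05). In NDI1 mice 447, 460, 461, 503 and 521, Ptgs2 was 1.13, 1.07, 1.06, 2.36 and 5.15 CPM with piericidin A, against 0.754 to 2.14 CPM untreated. It was higher in 3 NDI1 mice and lower in 2, with a log2 fold change of 0.45 ± 0.51 (adjusted p = 1).

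Whether NDI1 altered the Ptgs2 response was tested directly. The genotype difference of the piericidin A effect on Ptgs2 was −2.33 ± 0.69 on the log2 scale, which did not pass after adjustment over all genes (adjusted p = 0.088, unadjusted p = 0.00183), and none of the 10 genes passed (1.27% of all genes did; 2 of the 10, Ptgs2 and Ptger2, had an unadjusted p under 0.05). With the mouse as a block the Ptgs2 difference was −2.45 ± 0.59 and passed (adjusted p = 0.00674), as it did in DESeq2 (adjusted p = 0.0207) and without NDI1 mouse 521 (−2.98, adjusted p = 0.0446). In the direct comparison of the genotypes with piericidin A, Ptgs2 was the 1 of the 10 genes called (7.8% of all genes), and the 5 NDI1 libraries (1.06 to 5.15 CPM) lay below the 5 WT libraries (6.13 to 17.2 CPM), with a log2 difference of −2.57 ± 0.45 (adjusted p = 0.000193). These comparisons share the libraries with piericidin A.

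Ptges was higher with piericidin A in 5 of 5 WT mice, at 5.07, 16.5, 13.3, 32.6 and 29.4 CPM in mice 449, 452, 453, 496 and 520 against 2.61 to 13.9 CPM untreated. The groups overlapped because the mice differed several-fold in their own starting level. The log2 fold change was 1.34 ± 0.42 (adjusted p = 0.0266; 0.0016 with the mouse as a block), and without mouse 496 it was 1.21 and not called (adjusted p = 0.119), nor was it called without mouse 452 (0.0702) or 453 (0.0617), or with the fit restricted to the libraries compared (0.085). In NDI1 it was higher in 5 of 5 mice, with a log2 fold change of 0.67 ± 0.42 (adjusted p = 1), and the difference between genotypes was −0.67 ± 0.59 (adjusted p = 0.744).

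Ptger2 rose in WT to 29.2, 40.6, 24.99, 34.0 and 51.7 CPM (mice 449, 452, 453, 496 and 520), above all 5 untreated libraries (19.5 to 23.6 CPM). The log2 fold change was 0.74 ± 0.19 (adjusted p = 0.00833), and 0.57 without mouse 520 (adjusted p = 0.0925). In NDI1 it was 0.15 ± 0.19 (adjusted p = 1), and the difference between genotypes was −0.59 ± 0.27 (adjusted p = 0.4). Alox5ap was higher with piericidin A in 5 of 5 WT mice (276 to 420 against 219 to 306 CPM), a log2 fold change of 0.36 ± 0.14 that did not pass (adjusted p = 0.0739) and did with the mouse as a block (0.000872). Ptgs1, Ptger4, Hpgds, Lta4h, Ltc4s and Alox5 were not called, with log2 fold changes between −0.22 and 1.02, the largest being that of the scarce Alox5 with an SE of 0.85.

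Of the 37 other pathway genes, Abcc4, a transporter that exports prostaglandins, was the single one called for piericidin A in WT, where 14.8% of all genes were called. It went from 18.7 to 24.7 CPM to 9.61 to 15.4 CPM, with a log2 fold change of −0.84 ± 0.19 (adjusted p = 0.00258). With the mouse as a block 13 of the 37 were called, against 34.2% of all genes. In NDI1 Abcc4 was 19.8 to 26.9 CPM untreated and 17.1 to 25.6 CPM with piericidin A, and with piericidin A it was higher in NDI1 than in WT (0.76 ± 0.19, adjusted p = 0.00823).

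**Figure D3:**
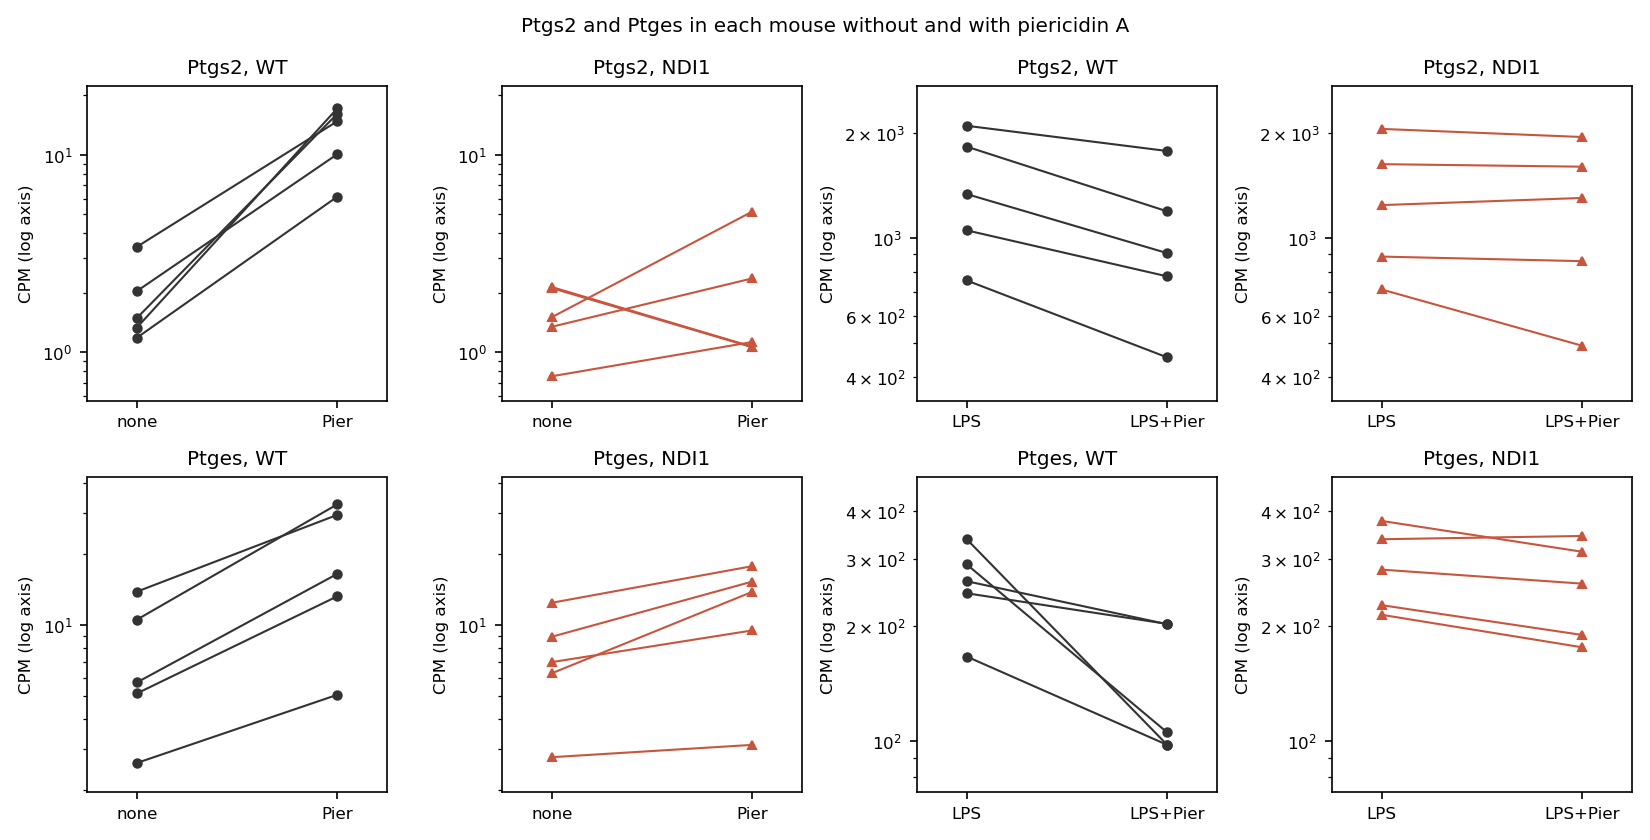
Ptgs2 (top) and Ptges (bottom) in CPM on logarithmic axes, each line being 1 mouse without and with piericidin A (Pier), in BMDMs without LPS (first and second panel of each row, WT then NDI1) and with LPS (the other panels). All 5 WT lines rise without LPS and fall with LPS for both genes, and of the NDI1 lines 3 (Ptgs2) and 5 (Ptges) of 5 rise without LPS and 4 of 5 fall with LPS for each gene.

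In LPS-treated WT BMDMs, piericidin A raised Hpgds and Lta4h. These were the 2 of the 10 genes called (16.7% of all genes were called). With the mouse as a block 7 of the 10 were called (34.5% of all genes), adding Ptges, lower, and Ptgs1, Ptger2, Alox5ap and Ltc4s, higher. In NDI1 none was called, as for all genes (0% by edgeR and by DESeq2; 127 genes, and none of the 10, had an unadjusted p under 0.05).

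Hpgds in LPS-treated WT mice 449, 452, 453, 496 and 520 went from 64.0, 53.8, 59.2, 42.0 and 52.5 CPM to 102, 69.4, 68.6, 102 and 96.2 CPM with piericidin A. The groups did not overlap, and the log2 fold change was 0.69 ± 0.20 (adjusted p = 0.016; 3e-05 with the mouse as a block). Without mouse 496 it was 0.55 (adjusted p = 0.13) and without mouse 520 0.64 (adjusted p = 0.0913). In NDI1 it was higher in 5 of 5 mice by 0.33 ± 0.20 (adjusted p = 1), and the difference between genotypes was −0.36 ± 0.28 (adjusted p = 0.619).

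Lta4h was higher in 5 of 5 WT mice, at 32.4, 36.3, 54.3, 52.2 and 49.2 CPM with LPS and piericidin A against 31.0 to 36.6 CPM with LPS. The log2 fold change was 0.41 ± 0.14 (adjusted p = 0.0344; 0.00344 with the block). Mice 449 and 452 stayed within the range with LPS alone and the other 3 rose above it, and the call was lost without mouse 453, 496 or 520 (adjusted p = 0.1, 0.212 and 0.13). In NDI1 Lta4h was also higher in 5 of 5 mice, by 0.09 ± 0.14 (adjusted p = 1), and the difference between genotypes was −0.32 ± 0.19 (adjusted p = 0.482). Without both mice 496 and 503 neither Hpgds nor Lta4h was called (adjusted p = 0.146 and 0.154).

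Ptges was lower with piericidin A in 5 of 5 LPS-treated WT mice, at 97.5, 202, 202, 105 and 97.5 CPM (mice 449, 452, 453, 496 and 520) against 166 to 338 CPM with LPS. The log2 fold change of −0.88 ± 0.39 did not pass (adjusted p = 0.115) and with the mouse as a block it did (−0.82 ± 0.27, adjusted p = 0.0175). Ptgs2 was lower in 5 of 5 WT mice as well, at 456 to 1779 CPM against 757 to 2101 CPM, and its log2 fold change of −0.47 ± 0.37 was not called with or without the block (adjusted p = 0.408 without). In NDI1 each was lower in 4 of 5 mice, and the log2 fold changes were −0.17 ± 0.39 for Ptges and −0.07 ± 0.37 for Ptgs2 (adjusted p = 1 for both). No genotype difference of the piericidin A effect under LPS was called among the 10 (0.979% of all genes were; 1 of the 10, Ptger2, had an unadjusted p under 0.05, and DESeq2 called none).

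Marker levels of other cell types moved beside these values. The summed level of 8 neutrophil markers was 45.2 to 1010 CPM with LPS and 94.0 to 2649 CPM with LPS and piericidin A in WT, and 33.1 to 795 and 46.1 to 816 CPM in NDI1, with the highest value of each group in mouse 496 or 503. It was higher with piericidin A in 5 of 5 WT and 4 of 5 NDI1 mice. The median sum in LPS-treated WT libraries went with piericidin A from 138 to 85.9 CPM for platelet and megakaryocyte markers. It went from 36.5 to 32.2 CPM for eosinophil markers and from 1.51 to 2.93 CPM for B cell markers. Hpgds and Ltc4s are also mast cell genes, and the summed level of 8 mast cell markers in WT was 0.953 to 4.25 CPM with LPS and 1.60 to 11.51 CPM with both. Of those, Mcpt4 and Cma1 were at 0 in all 40 libraries and Tpsb2 and Tpsab1 reached at most 0.0696 and 0.101 CPM, while Kit averaged 1.49 to 4.19 CPM per mouse. The other 3 (Cpa3, Fcer1a and Ms4a2) were higher on average in mice 496 and 503 than in any other mouse, with Cpa3 at 1.26 and 0.964 CPM against at most 0.164 CPM. The part of neutrophil or mast cell RNA in the Hpgds and Lta4h values was not tested.

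Among the other pathway genes, piericidin A under LPS in WT raised 5 of 37 and lowered 3, where 16.7% of all genes were called. The raised genes included those for the lysosomal phospholipase Pla2g15 (1.43 ± 0.29 on the log2 scale, adjusted p = 0.000808), Daglb (1.37 ± 0.27, 0.00053) and Dagla (1.29 ± 0.30, 0.00303), each of which LPS had lowered. Pla2g4a fell from 78.8 to 171 CPM to 36.8 to 71.3 CPM, without overlap (−1.13 ± 0.25, adjusted p = 0.00176), and in NDI1 it was 72.1 to 151 CPM with LPS and 71.0 to 148 CPM with both. Abcc4 fell by 0.85 on the log2 scale (SE 0.19, adjusted p = 0.00187) and Cbr1, a carbonyl reductase that can act on prostaglandin E2, rose by 0.83 ± 0.20 (adjusted p = 0.00436). Among these, Dagla was not called under 2 of 17 alternatives and Cbr1 under 1. With the block 19 of the 37 were called, against 34.5% of all genes. None of the 37 was called for a genotype difference of this effect, against 9 with the block (9.51% of all genes).

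The change that piericidin A made to the LPS response itself was tested as an interaction in each genotype. In WT, 2 of the 10 genes were called (4.75% of all genes), both with a smaller LPS response in the presence of piericidin A. For Ptgs2 the difference of log2 fold changes was −3.25 ± 0.59 (adjusted p = 0.000771) and for Ptges −2.22 ± 0.57 (adjusted p = 0.017). Both contain the rise with piericidin A alone, since that is the baseline of the second LPS response, and for Ptgs2 that log2 fold change (2.78) was larger in size than the one under LPS (−0.47). Ptges was not called without mouse 496 (adjusted p = 0.132) or 520 (0.075). With the mouse as a block 4 were called (17.4% of all genes), adding Hpgds (0.71 ± 0.16) and Ptgs1 (0.54 ± 0.17), whose falls with LPS were smaller. In NDI1 none was called, as for all genes (0% by edgeR and by DESeq2; 78 genes and none of the 10 had an unadjusted p under 0.05), and the Ptgs2 value was −0.52 ± 0.63. Of the 37 other pathway genes in WT, 1 was called up and 2 down. Pla2g4a was 1 of those down (−1.76 ± 0.36, adjusted p = 0.00288) and was not called under 1 of 17 alternatives, while the other 2 calls were lost under 4 and 11 of 17. With the mouse as a block 8 of the 37 were called, against 17.4% of all genes.

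NDI1 by itself went with no called difference in the pathway. Without treatment none of the 10 genes differed between NDI1 and WT, as for all genes (0% by edgeR and by DESeq2; 39 genes had an unadjusted p under 0.05), and the same held with LPS alone (0%; 141 genes). None of the 10 had an unadjusted p under 0.05 in either comparison. Their log2 differences were between −0.36 (Ltc4s) and 0.29 (Alox5) without treatment and between −0.54 (Alox5) and 0.17 (Ptger2) with LPS, and Ptgs2 differed by −0.24 ± 0.52 and −0.12 ± 0.37. With LPS and piericidin A together, 2 of the 10 were called lower in NDI1 (12% of all genes were called), Hpgds by −0.63 ± 0.20 (adjusted p = 0.0337) and Lta4h by −0.49 ± 0.14 (adjusted p = 0.0154). The groups overlapped for both, with 35.1 to 72.4 CPM in NDI1 against 68.6 to 102 CPM in WT for Hpgds. Neither was called without mouse 496, 503 or 520, nor Hpgds without 449, 460 or 521, nor Lta4h without 453 or 461 (adjusted p = 0.0507 to 0.0972 over these).

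Alox5 (chr6:116410077-116461178, minus strand), which codes for 5-lipoxygenase, separated mice rather than treatments. Its counts were 0 to 51 per library. In mouse 496 it was 1.67, 2.20, 4.46 and 5.44 CPM (untreated, LPS, piericidin A and both), and in mouse 503 it was 1.70, 1.47, 2.95 and 3.29 CPM in the same order. In the other 8 mice no library exceeded 0.840 CPM. Alox5 was not detected in 2 libraries, the LPS and piericidin A library of WT mouse 453 and the LPS library of NDI1 mouse 447, where a count of 0 allows up to 0.481 and 0.329 CPM at 3 counts (counting error only).

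In the same 2 mice the markers of several cell types that were not the intended cells were high. The summed level of 8 neutrophil markers, led by S100a9 and Ngp, was 420 to 2649 CPM in the 8 libraries of mice 496 and 503 and 12.3 to 168 CPM in the other 32. For 5 platelet and megakaryocyte markers the sum was 241 to 373 CPM against 37.0 to 174 CPM, of which Pf4 made up most; Itga2b averaged 17.9 and 10.6 CPM in the 2 mice and at most 1.61 CPM in any other. All 8 neutrophil, 5 platelet and 5 B cell markers had a higher mean in both mice than in every other mouse. The summed level of macrophage markers was 23930 to 31130 CPM there, within the 19670 to 38690 CPM of the other mice. Lyz2 made up most of it, with means of 17530 and 16180 CPM in mice 496 and 503. Csf1r (3317 and 3611 CPM), Itgam (578 and 577) and Mertk (234 and 225) were higher there than in any other mouse. The highest means elsewhere were 2875, 558.5 and 165 CPM. The part of other cell types in the Alox5 level was not tested. The mice were noticed through these levels, so the comparison is a description without a test.

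**Figure D4:**
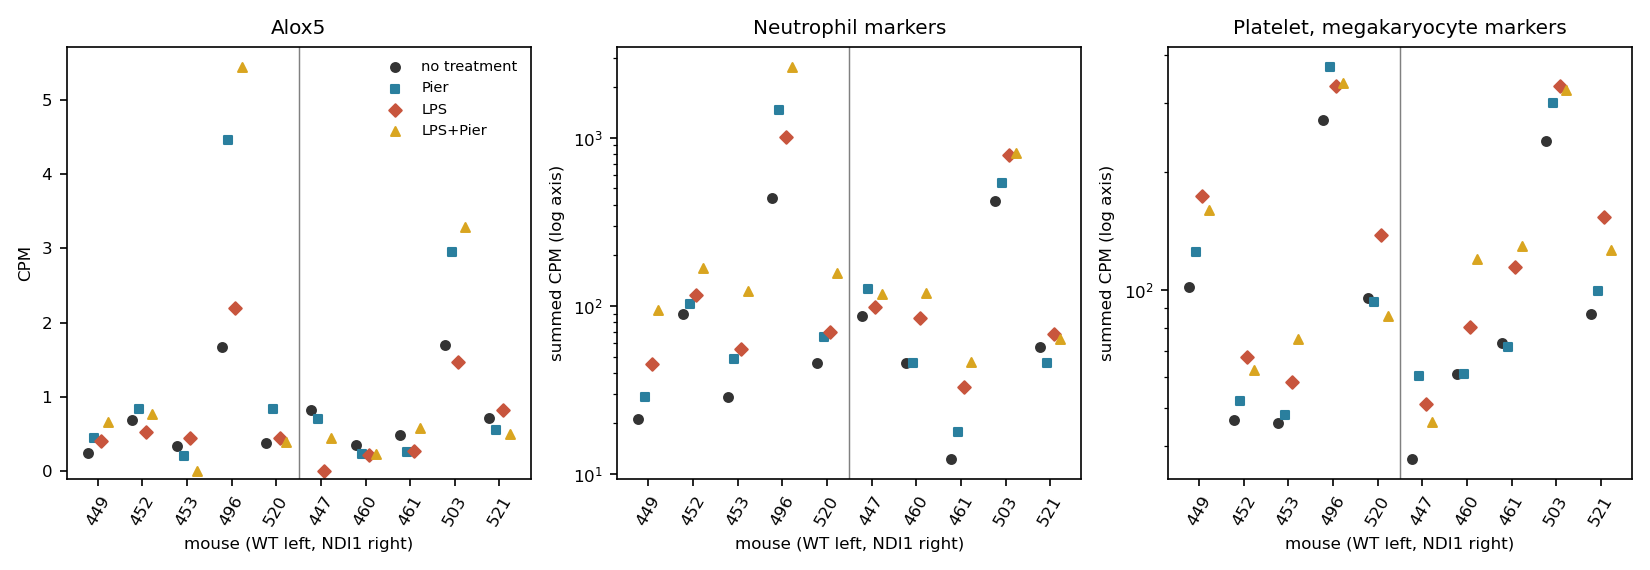
Alox5 in CPM (left, linear axis) and the summed CPM of 8 neutrophil markers (middle) and 5 platelet and megakaryocyte markers (right, both logarithmic axes) for each of the 10 mice, with 1 point per treatment. Mice 496 and 503 are highest in all 3 panels, with Alox5 at 1.47 to 5.44 CPM against at most 0.840 CPM in the others.

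Mice 496 and 503 were also high for Ptgs1 and Ptger4 averaged over treatments, with 30.8 and 27.4 CPM for Ptgs1 against 10.7 to 22.4 CPM in the other 8, and 81.0 and 84.8 CPM for Ptger4 against 34.1 to 65.3 CPM. They were at the low end for Alox5ap, with 251 and 223 CPM against 254 to 351 CPM. The LPS rise of Ptgs2 in WT was 9.41 to 9.78 on the log2 scale over the 17 alternatives, leaving out both mice among them.

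Across LPS-treated and other libraries together, the genes whose levels ran most like those of a member over the 40 libraries were found by Pearson's r of log2 CPM, a description in which libraries share mice and treatments. For Ptgs2 they were Ripk2 (r = 0.99), Cldnd1 (0.989) and B4galt5 (0.989), and for Ptges they were Ehd1 (0.988), Tnip1 (0.987) and Mapkapk2 (0.981). For Ptgs1 they were Gas6 (0.894), Stab2 (0.884) and Ucp2 (0.882), each highest on average in mice 496 and 503. For Alox5 they were Tmem40 (0.851), Sept1 (0.849) and Cavin2 (0.847), which had means of 1.24 to 3.68 CPM in those 2 mice and at most 0.400 CPM in any other.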

How the data were processed

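The authors sequenced polyA-selected RNA and deposited raw counts per gene. Per the labels, reads were trimmed (Trimmomatic), aligned to mm10 (STAR) and counted in exons (HTSeq); the annotation release and strand setting are not given in the sources used here. The deposited counts cover 43430 genes, 42462 with a symbol, and 1 column of undetermined reads was left out. Counts were tested in edgeR 4.0.16 (R 4.3.3): filterByExpr kept 11853 genes, TMM factors were used, and all 40 libraries shared one quasi-likelihood fit with a mean per group. Adjusted p-values are Benjamini-Hochberg values over the 11853 genes, and SE is the log2 fold change over the square root of F. Log2 CPM values used a prior count of 2. Levels per kilobase used merged GENCODE M21 exons. The number that 4 library titles share was read as the mouse; deviations of same-numbered libraries from group means correlated by 0.453 on average (0.0995 to 0.769, 60 pairs), against −0.107 for different mice, so fits with the mouse as a block were added. Replicates differed beyond counting noise (80 pairs, chi-square per degree of freedom at least 9.6). In simulated counts of 11853 genes, 67% of 200 genes changed by 1 on the log2 scale were recovered for piericidin A in WT. The share was 75.5% for LPS in WT and 65.5% for piericidin A under LPS in WT. The simulated libraries had no mouse effect and far fewer changed genes than were called in the data. These shares therefore do not give the power of the tests. Intervals and limits from counts cover counting error only, and no molecular identifiers are stated. The 10 genes, the lists of other pathway genes and markers, and the tests were chosen with earlier results of these data known. Named pathway genes are the 6 called with the largest change for LPS, for piericidin A and for piericidin A under LPS in WT; Daglb with LPS was named after its values were seen. The values of some other called pathway genes are not reported here.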

Additional observations from a re-analysis of the deposited data

Results flagged for a closer look

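In each of the 80 sets of 5 libraries (10 genes in 8 groups), the highest and lowest library was compared with the nearest of the others. In 6 sets 1 library lay further off than a share of 0.71 of the whole range, a gap that chance gives in about 1 set in 20, and all 6 were libraries of mice 496 and 503. For Alox5 these were mouse 496 with LPS at 2.20 CPM (others 0.408 to 0.534), with piericidin A at 4.46 CPM (others 0.211 to 0.840) and with both at 5.44 CPM (others 0 to 0.768), and mouse 503 with piericidin A at 2.95 CPM (others 0.228 to 0.703) and with both at 3.29 CPM (others 0.234 to 0.581). For Ptger4 it was mouse 503 with LPS and piericidin A at 96.2 CPM (others 52.6 to 64.7). The marker levels that went with these mice are given above, and their part in these values was not tested.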

How the results depend on the processing

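The 17 alternatives were RLE factors, 2 other count filters, a fit of only the libraries compared, the mouse as a replicate block, DESeq2 1.42.0, leaving out each of the 10 mice, and leaving out mice 496 and 503 together, which was chosen after seeing the data. The 575 log2 fold changes recomputed were those of members and comparisons called in the main fit or under some alternative. None of the 575 changed direction, 42 lost their call and 27 gained one. Members and comparisons never called, all of those of Alox5 among them, were left out. The kept directions were thus largely given by this choice. Of 251 counts of called members, 226 stayed within 1.5 times the main count and 25 did not. For piericidin A under LPS in WT the count of 2 became 1 with no filter, 1 with only the libraries compared, 7 with the replicate block, 0 to 3 when 1 mouse was left out and 0 without mice 496 and 503. For the genotype difference of the piericidin A effect, 0 became 1 with the replicate block, 1 in DESeq2 and 0 to 1 when 1 mouse was left out. For the piericidin A-dependent change in the WT response to LPS, 2 became 4 with the replicate block, 1 to 2 when 1 mouse was left out and 1 without mice 496 and 503. For NDI1 against WT with LPS and piericidin A, 2 became 0 with no filter, 0 with only the libraries compared, 0 to 2 when 1 mouse was left out and 0 without mice 496 and 503. The cause of these changes was not tested. The replicate block could not be used between genotypes, since a mouse has one genotype; it lost no call of a member. Alox5 and Ltc4s had at most 51 and 46 counts in a library, which limits what could be seen for them. Levels per kilobase were also computed with the exon lengths of the count table, a choice made after the levels were seen, which moves the order of the middle genes.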
